A study of Arabidopsis thaliana with 8 samples.

Results

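Class III peroxidases are plant haem enzymes that are secreted to the cell wall, the apoplast or the vacuole. They use hydrogen peroxide to oxidise phenolic compounds, which cross-links lignin, extensins and pectin-bound phenolics and stiffens the wall, and under other conditions they release reactive oxygen that can loosen it. Arabidopsis carries them as a large multigene family whose members differ in organ, cell type and stimulus, so a rosette holds the transcripts of some members and little of others. The values below describe 10 of these genes, AT4G37520, AT2G37130, AT2G34060, AT5G64120, AT2G18150, PRXR1 (AT4G21960), AT1G71695, AT3G32980, AT4G36430 and AT4G11290. Each had 1 probe set that the array annotation assigns to a single gene, giving 10 of the 8297 probe sets of the table and 10 of the 46 genes of the family that had such a probe set.

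The samples were shoots of Arabidopsis thaliana of 2 genotypes, yda-2 and wild type (WT). The yda-2 plants carry a mutant allele of YODA, a MAP kinase kinase kinase gene known for limiting how many stomata form, and the controls carry no allele or treatment named in the labels. All plants grew on potting mix at 22 °C under continuous light, and the above-ground tissue was collected from rosettes that had not bolted. There were 4 Affymetrix AtGenome1 arrays for yda-2 and 4 for WT, 1 per biological replicate, and the replicates were grown and harvested at different times. The labels name neither the accession of the wild type nor the number of plants in a sample. Whole shoots were used, so fewer cells of a type and less RNA per cell cannot be told apart. The transcript of YODA itself was not analysed here. Of 14 green leaf genes, 5 had a named probe set, and their 8 probe sets had mean signals from 509.8 to 10606 in yda-2 and from 552.1 to 12244 in WT. These levels were not steady over the replicates. The log2 difference of replicates 3 and 4 minus replicates 1 and 2 was -5.44 for LHCB4.1 and -3.17 for RCA. It was -1.40, -0.78 and -4.81 for PSAE-1, -1.58 and 0.93 for LHB1B2, and 1.06 for LHCB4.3. The mean log2 difference, yda-2 minus WT, was -1.08 (SE 0.43) for LHCB4.3, which was lower in 4 of 4 pairs. It was -0.81 (SE 1.73) for LHCB4.1 and -0.44 (SE 1.08) for RCA, each lower in 2 of 4 pairs. Pair 3 stood at -3.37 for LHCB4.1 and -2.28 for RCA. The probe sets of LHB1B2 and PSAE-1 lay between -0.18 and 0.20, and 0 of the 8 passed the test described below. The part of leaf transcript levels in the peroxidase values was not tested. Of the 8 root and 6 flower marker genes, 0 had a named probe set, so tissue of those organs was not checked.

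The genes were chosen by family name, with earlier results of these arrays known. AT4G37520 and AT2G34060 had already been picked out for a small p-value between the genotypes, and all 10 had a mean signal of at least 100 over the 8 arrays, the level above which probe sets were tested. The differences between yda-2 and WT are therefore given as a description, with no test for single genes. The family list holds 73 genes. Besides the 10, 7 of the other 36 genes had a tested probe set and 29 had probe sets below a mean of 100 alone. In the manufacturer's naming of probe sets the ending _s_at marks probes that several similar sequences share. This ending belonged to 7 of the 10 probe sets, those of AT4G37520, AT2G37130, AT5G64120, PRXR1, AT1G71695, AT3G32980 and AT4G11290. The probe set of AT2G18150 ended in _i_at, and those of AT4G36430 and AT2G34060 in plain _at.

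Other class III peroxidase genes lie within 2 protein-coding genes of 3 of the 10. AT4G37530 lies beside AT4G37520 and had no named probe set of its own, so the signal of AT4G37520 may include its transcript and is uncertain in that respect. AT2G18140 lies beside AT2G18150 and had a dim probe set of its own, with a mean signal of 33.9 in yda-2 and 28.9 in WT. AT5G64100 and AT5G64110 lie beside AT5G64120, and AT5G64100 had a mean signal of 27.4 in yda-2 and 42.9 in WT. AT5G64110 had no named probe set of its own, so the signal of AT5G64120 is uncertain in the same way. Similar genes elsewhere in the genome were not looked for, so the signals of the other _s_at probe sets may be shared too. Signals of different probe sets depend on their probes, so the levels below are set against each other only between arrays and not between genes.

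The arrays themselves differed. The highest signal of an array lay between 22519 and 33920 on those of replicates 1 and 2, and between 6226 and 10422 on those of replicates 3 and 4, with both genotypes in each array set. WT replicate 2 stood apart, with a mean correlation of 0.819 with the other arrays, taken across tested probe sets that are not independent of each other, where the other 7 had 0.873 to 0.903. It was the lowest of the 8 arrays for 5 of the 10 peroxidases, AT5G64120, AT4G37520, AT4G36430, AT3G32980 and AT1G71695, and for 24.2% of all tested probe sets. The 9 bacterial and phage control probe sets were lower in yda-2 in 4 of 4 same-numbered pairs, by 0.40 on the log2 scale on average. Their mean log2 signal was 10.64, 10.82, 9.36 and 8.97 in yda-2 replicates 1 to 4, against 11.22, 11.15, 9.43 and 9.58 in WT. In both genotypes it was thus lower in replicates 3 and 4. The log2 ratio of ubiquitin 3′ to 5′ signal exceeded WT in all 4 yda-2 partners, by 0.34 on average. It was 0.650, -0.258, -0.357 and -0.485 in yda-2 replicates 1 to 4, against 0.060, -0.918, -0.364 and -0.578 in WT. The excess thus lay mainly in pairs 1 and 2. The part of these array differences in the values below was not tested, except where a value without WT replicate 2 or within an array set is given.

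Across the 10 genes, 7 had a higher mean in yda-2 and 3 a lower one, with a median log2 difference of 0.33, against 0.02 over all 4788 tested probe sets, of which 53.0% were above 0. Log2 differences are yda-2 minus WT on the scale log2(signal + 16), which understates the change of dim probe sets. None of the 10 passed an adjusted p of 0.05 in limma, where 0.0418% of all tested probe sets passed, or with the replicate number as a block, where 0.188% did. At an unadjusted p under 0.05 there were 4 of the 10, 3 higher and 1 lower in yda-2, against 3.22% of all probe sets, and 5 of the 10 with the block, against 7.10%. With limma's array weights 1 of the 10 passed, against 0.230% of all probe sets without the block and 0.856% with it. That 1 was AT4G37520, already picked out for a small p-value in this same comparison, so its pass is no independent support. All yda-2 values lay above all WT values for 1 of the 10, AT4G37520, against 1.73% of all probe sets, and all below for 1, AT2G34060, against 0.647%. These counts come from the comparison in which genes had been picked out, and they are not independent evidence about the family.

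AT4G37520 was the peroxidase whose yda-2 arrays stood clear above WT. Its signal was 1199, 1727, 1926 and 1402 in yda-2 replicates 1 to 4, against 868.4, 381.3, 596.5 and 542.7 in WT replicates 1 to 4. The groups did not overlap, and the pair of replicate 1 was the closest. The mean was 1563 ± 325 in yda-2 and 597.2 ± 202.6 in WT (SD, n = 4 each), and the log2 difference was 1.40 (SE 0.28), a 2.64-fold level. The difference was 0.46, 2.13, 1.66 and 1.34 in pairs 1 to 4. It was 1.21 without WT replicate 2, 1.30 within replicates 1 and 2 and 1.50 within replicates 3 and 4.

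AT5G64120, also named PRX71, encodes a wall peroxidase known for its part in lignin deposition and in restraining growth. Its signal was 324.2, 241.3, 830.4 and 273.6 in yda-2 replicates 1 to 4, against 270.6, 10.3, 252.2 and 101.5 in WT replicates 1 to 4. The groups overlapped, yda-2 was the higher in every pair, and WT replicate 2 was near the lower end of the scale. The mean was 417.4 ± 277.5 in yda-2 and 158.7 ± 124.6 in WT (SD, n = 4 each), and the log2 difference was 1.62 (SE 0.69). Much of its size came from 1 array: without WT replicate 2 the log2 difference was 0.88, and without pair 2 it was 1.07. Without pair 2 the groups of AT5G64120 no longer overlapped, so 2 of the 10 genes had all yda-2 values above WT, against 5.53% of all probe sets, and 1 had all below, against 2.05%. Without WT replicate 2 alone the counts were 1 above and 1 below, again AT4G37520 and AT2G34060, against 3.28% and 1.25%.

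AT2G37130 was higher in yda-2 in 3 of 4 pairs. Its signal was 929.1, 1326, 1325 and 1541 in yda-2 replicates 1 to 4, against 1062, 725.0, 432.7 and 570.5 in WT replicates 1 to 4. WT replicate 1 exceeded its yda-2 partner, and the other WT arrays lay below every yda-2 array. The mean was 1280 ± 255 in yda-2 and 697.4 ± 270.5 in WT (SD, n = 4 each), a log2 difference of 0.91 (SE 0.30). The array sets differed in its size, with 0.33 within replicates 1 and 2 and 1.49 within replicates 3 and 4, a contrast that was not tested.

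AT2G18150 had a signal of 388.8, 460.4, 115.7 and 203.3 in yda-2 replicates 1 to 4, against 218.0, 132.8, 90.1 and 155.3 in WT replicates 1 to 4. The groups overlapped, with both genotypes at their lowest in replicate 3, and yda-2 was the higher in every pair. Its log2 difference was 0.78 (SE 0.43), with 1.23 within replicates 1 and 2 and 0.33 within replicates 3 and 4. Together with AT4G37520 and AT5G64120, 3 of the 10 genes had yda-2 above WT in each of the 4 pairs, against 9.44% of all probe sets, and 1, AT2G34060, was lower in 4 of 4, against 7.10%.

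AT2G34060 was the peroxidase whose yda-2 arrays all lay below WT. Its signal was 120.3, 76.6, 130.4 and 152.6 in yda-2 replicates 1 to 4, against 210.1, 260.8, 223.9 and 194.8 in WT replicates 1 to 4. The gap was widest in pair 2 and narrowest in pair 4. The mean was 120.0 ± 31.9 in yda-2 and 222.4 ± 28.2 in WT (SD, n = 4 each), a log2 difference of -0.84 (SE 0.30). It was -0.76 without WT replicate 2, -1.15 within replicates 1 and 2 and -0.52 within replicates 3 and 4. WT replicate 2 was the highest array for this gene.

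**Figure D1:**
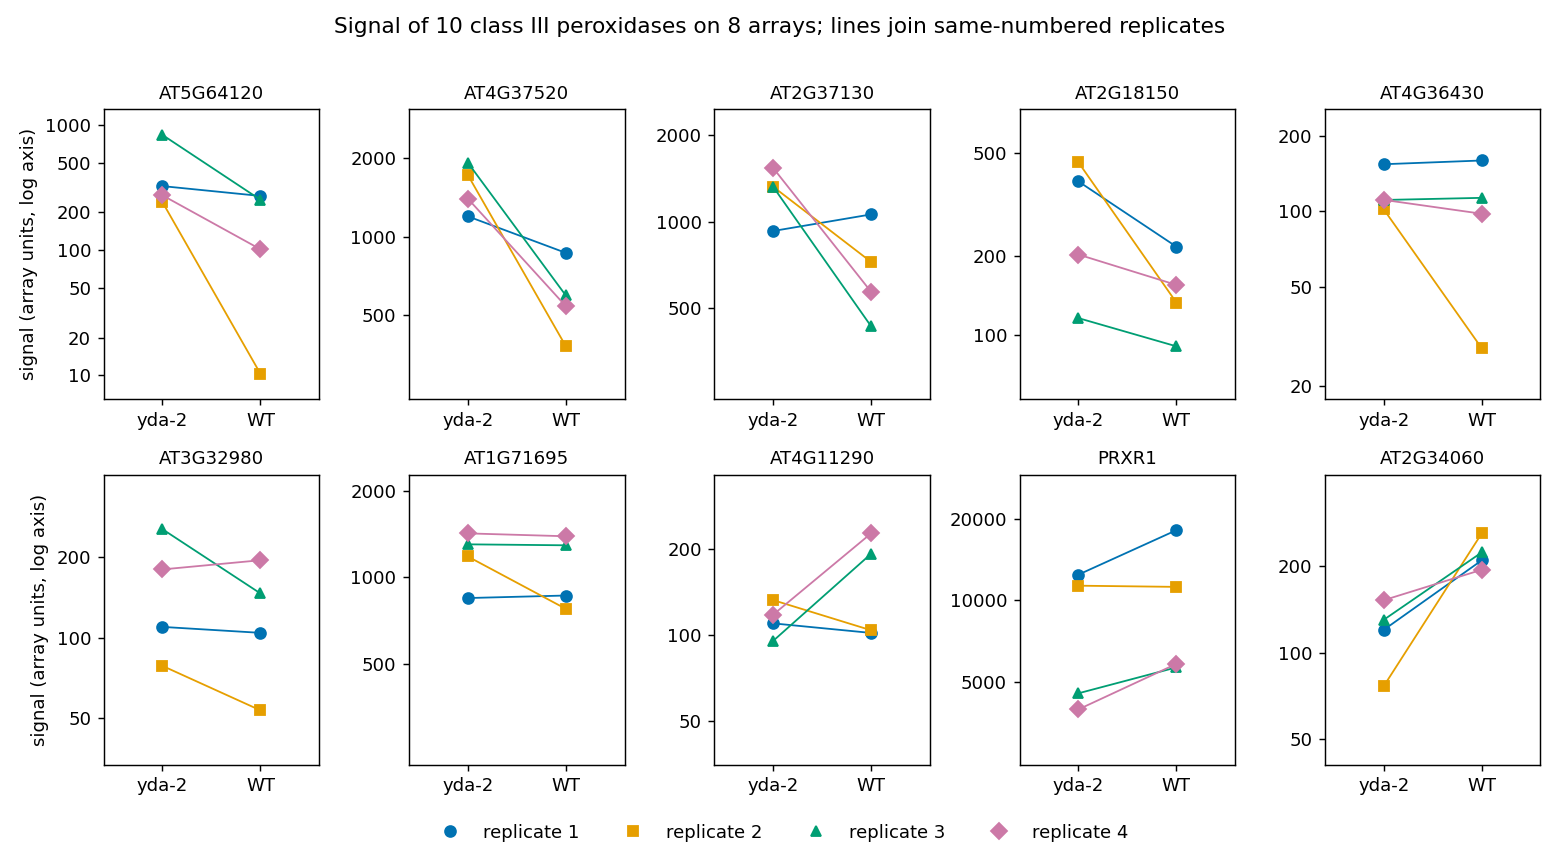
Signal (array units, log axis) of each of the 10 peroxidases on the 4 yda-2 arrays (left) and the 4 WT arrays (right) of its panel, with a line joining the same-numbered replicates. All yda-2 points lie above all WT points for AT4G37520 and all below for AT2G34060, and the WT replicate 2 point of AT5G64120, at 10.3, lies far below the others.

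The other 5 genes had smaller mean differences, between -0.35 and 0.37 on the log2 scale. AT4G36430 had 154.2, 101.8, 111.0 and 111.1 in yda-2 replicates 1 to 4, against 159.6, 28.4, 113.2 and 97.8 in WT replicates 1 to 4. Outside WT replicate 2 the genotypes were nearly level, and the log2 difference of 0.37 (SE 0.44) was -0.03 without that array and 0.03 without pair 2. AT3G32980, a peroxidase of the group related to the horseradish enzyme, had 109.8, 78.4, 255.3 and 180.4 in yda-2 replicates 1 to 4, against 104.3, 53.4, 146.6 and 195.3 in WT replicates 1 to 4. Here the arrays of replicates 3 and 4 were the higher ones in both genotypes, and the log2 difference of 0.29 (SE 0.45) was -0.02 without WT replicate 2 and 0.23 without pair 2.

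AT1G71695 had nearly level means, at 1188 ± 248 in yda-2 and 1080 ± 305 in WT (SD, n = 4 each). Its log2 difference was 0.15 (SE 0.27), 0.60 in pair 2 and between -0.03 and 0.03 in the other pairs. A difference smaller than its SE does not show that the genotypes were alike.

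AT4G11290, known from the root tip as one of the peroxidases repressed by the transcription factor UPBEAT1, had 109.7, 132.2, 95.3 and 117.6 in yda-2 replicates 1 to 4. It had 101.6, 103.8, 191.7 and 225.8 in WT replicates 1 to 4. WT was the higher in pairs 3 and 4 alone, so the log2 difference of -0.34 (SE 0.35) was made of 0.20 within replicates 1 and 2 and -0.88 within replicates 3 and 4. The direction thus turned with the array set, and the contrast between the sets was not tested.

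PRXR1 was a bright probe set on every array. Its signal was 12435, 11321, 4542 and 3963 in yda-2 replicates 1 to 4, against 18131, 11206, 5659 and 5830 in WT replicates 1 to 4. Both genotypes were lower in replicates 3 and 4, and yda-2 was the lower in 3 of 4 pairs. The log2 difference was -0.35 (SE 0.50), and it ranged from -0.62 without yda-2 replicate 1 to -0.02 without WT replicate 1. With 1 pair left out it stayed between -0.47 and -0.28. With the replicate number as a block the SE was 0.17.

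**Figure D2:**
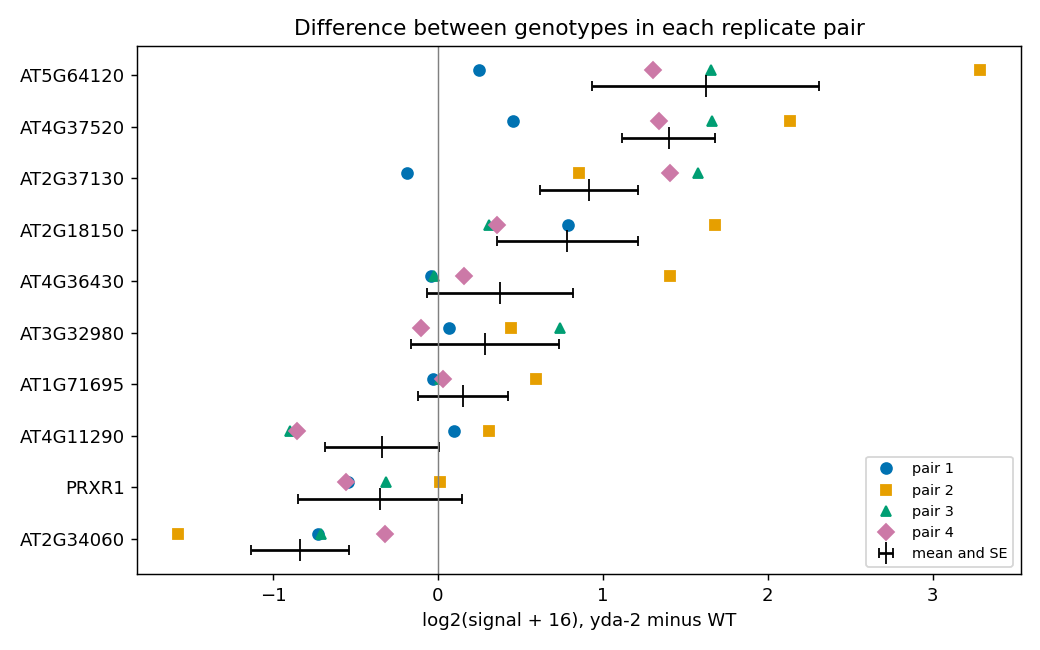
Log2 difference, yda-2 minus WT on the scale log2(signal + 16), in each of the 4 replicate pairs (coloured points) for the 10 peroxidases, with the mean and its SE from the fit without the block (black). The pair 2 point stands above the other pairs for 7 of the 10 genes, AT5G64120, AT4G37520, AT2G18150, AT4G36430, AT1G71695, AT4G11290 and PRXR1, and AT4G11290 has pairs 1 and 2 above 0 and pairs 3 and 4 below. The share of all tested probe sets with pair 2 highest was not counted, and WT replicate 2 was the lowest array for 24.2% of them.

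The replicates were harvested at different times, which gives a second comparison. Whether earlier results on the replicates played a part in the choice of the genes is not known. Differences between replicate numbers, with genotype in the model, were tested with limma's F-test over all 4788 probe sets. The 10 peroxidases included 1 gene that passed, PRXR1, while 8.29% of all probe sets passed, so the count was near the background. At an unadjusted p under 0.05 there were 4 of the 10, PRXR1, AT5G64120, AT3G32980 and AT2G18150, against 27.7%. The range of the replicate means had a median of 0.98 on the log2 scale over the 10 genes and of 0.82 over all tested probe sets.

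PRXR1 spanned 1.64 on the log2 scale between replicates (limma F-test, adjusted p = 0.00714), and its mean in replicates 3 and 4 was 1.39 below that in replicates 1 and 2. The bright end of the arrays was lower too, and so was the mean of the bacterial and phage control probe sets. Of the 246 tested probe sets averaging 5000 or more, a level chosen after the data were seen, 236 were lower in replicates 3 and 4, with a median of -0.98, and 32.5% were further down than PRXR1. By rank among the 8247 probe sets without controls, PRXR1 stood at 96, 90, 189 and 215 in yda-2 replicates 1 to 4, and at 45, 96, 169 and 55 in WT replicates 1 to 4. After quantile normalization its range was 0.62 (limma F-test, adjusted p = 0.370), and 0 of the 10 genes passed, against 3.99% of all probe sets. Time of harvest and array set cannot be told apart for this gene.

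AT5G64120 had the widest range between replicates, 2.53, with the lowest mean in replicate 2 and the highest in replicate 3 (limma F-test, adjusted p = 0.0884). Its range was 1.42 without WT replicate 2. AT2G18150 and AT3G32980 each had a range of 1.38, in opposite senses. AT2G18150 was 0.92 lower in replicates 3 and 4 than in replicates 1 and 2, and AT3G32980 was 1.05 higher (limma F-test, adjusted p = 0.164 and 0.146). AT4G36430 had a range of 1.26, with its lowest mean in replicate 2, and it was 0.57 without WT replicate 2 and 1.95 without yda-2 replicate 2. The other 5 genes had ranges between 0.24 in AT2G34060 and 0.71 in AT1G71695, and 1 array moved most of these. The range of AT2G34060 reached 0.73 without WT replicate 2, and 0.58 with WT replicate 4 left out. That of AT4G37520 (0.39) was 0.94 with yda-2 replicate 1 left out, 0.88 for yda-2 replicate 2 and 0.70 for WT replicate 1. That of AT2G37130 (0.38) went as high as 1.11 without yda-2 replicate 1 and as low as 0.14 without WT replicate 3. That of AT4G11290 (0.56) lay between 0.32 without WT replicate 4 and 0.91 without yda-2 replicate 4.

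PRXR1 spanned 1.51 on the log2 scale without WT replicate 1 and 1.77 without yda-2 replicate 1, against 1.64 with all arrays. The count of peroxidases that passed the F-test rested on single arrays. It was 0 of 10 without WT replicate 1, where 1.02% of all probe sets passed, and 0 without yda-2 replicate 1, where 0.647% did. It was 2 without WT replicate 2, where 19.4% passed and AT2G18150 joined PRXR1. It was 4 without yda-2 replicate 2, where 30.8% passed and AT5G64120, AT2G18150 and AT4G36430 joined.

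**Figure D3:**
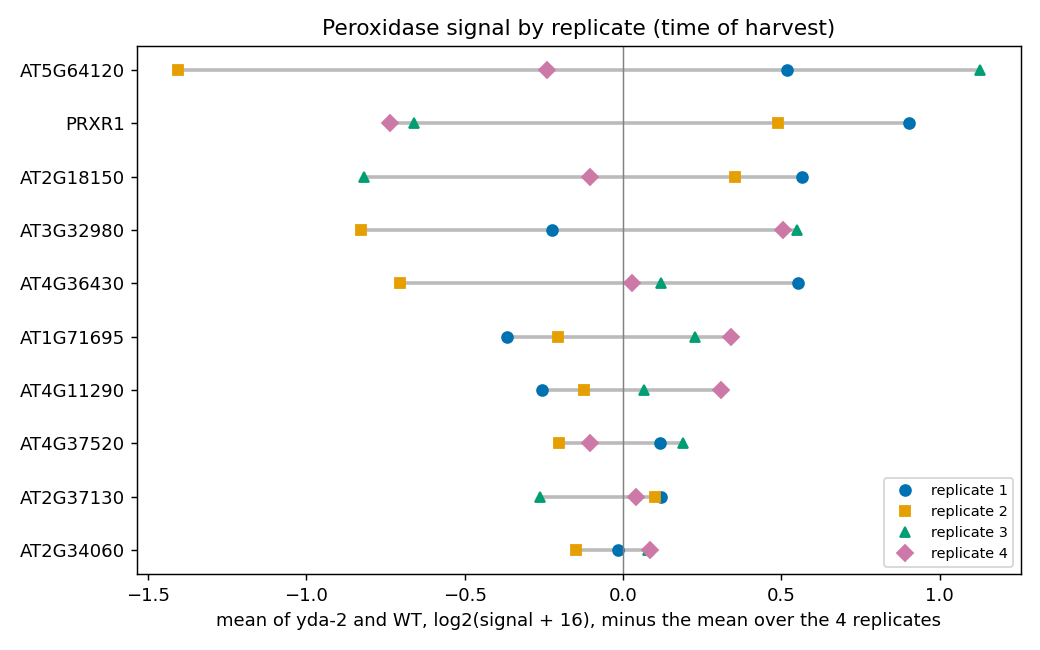
Mean of yda-2 and WT on the scale log2(signal + 16) for each of the 4 replicates (points), minus the mean over replicates, for the 10 peroxidases in order of their range (grey bar). AT5G64120 spans 2.53 and PRXR1 1.64, while AT2G34060 and AT4G37520, whose genotypes did not overlap, span 0.24 and 0.39, or 0.73 without WT replicate 2 and 0.94 without yda-2 replicate 1.

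The genes thus differed in where their spread lay. The residual SD within a genotype was 1.26 on the log2 scale for AT5G64120, wider than 98.3% of all tested probe sets. It was 0.83 for PRXR1, at the 89.4th percentile, and 0.29 for AT2G34060, at the 14.4th. With the replicate number as a block the residual SD was smaller for 6 of the 10 genes and larger for 4. The change was widest for PRXR1, at 0.19 with the block, followed by AT3G32980, 0.27 against 0.68 without the block, AT5G64120, 0.89 against 1.26, and AT2G18150, 0.45 against 0.69. The 4 genes with a larger SD were AT4G37520, 0.50 against 0.40 without the block, AT2G37130, 0.56 against 0.44, AT4G11290 and AT2G34060. With the block PRXR1 stood at the 18.8th percentile, AT2G34060 at the 58.9th and AT5G64120 at the 95.2nd. The median residual SD over all tested probe sets was 0.47 without the block and 0.33 with it, against 0.53 and 0.45 over the 10. The share of all probe sets with a smaller SD under the block was not counted.

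Likeness of pattern was measured as the root mean square distance between log2 signals over the 8 arrays, each probe set minus its own mean, against the 2031 other tested single-gene probe sets. The arrays share harvest, scaling and array set, so a short distance is a description of these 8 arrays. The closest probe set was AT1G03140 for AT1G71695 at 0.091, AT2G20230 for AT3G32980 at 0.106 and AT1G23130 for PRXR1 at 0.152. It was AT4G30020 for AT4G11290 at 0.178, AT3G52030 for AT2G34060 at 0.201 and AT2G41710 for AT4G36430 at 0.213. It was AT5G16990 for AT2G37130 at 0.225, AT2G17760 for AT2G18150 at 0.361, AT1G54010 for AT4G37520 at 0.388 and AT4G38540 for AT5G64120 at 0.514.

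Within the 10, no gene had another of them as its closest match. The 10 were few among the 2031 candidates, so this says little about likeness among them. AT2G37130 was the seventh closest to AT4G37520, at 0.455, and AT4G37520 was at rank 38 from AT2G37130. AT1G71695 and AT4G11290 lay 0.345 apart, at ranks 116 and 437. A median distance of 0.48 to 1.41 separated each of the 10 from the other probe sets.

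The other peroxidases of the family varied between arrays too, with a median residual SD of 0.68 on the log2 scale against 0.53 for the 10 genes, and of 0.43 against 0.45 with the replicate block. Their 8 tested probe sets, for 7 genes, had a median log2 difference of 0.10, 5 above 0 and 3 below, and 0 passed with or without the block. AT3G21770 had 2 probe sets that disagreed, with log2 differences of 0.18 and 1.29. These were 0.26 and 0.89 without WT replicate 2, and 0.37 and 0.75 without pair 2. The cause of the disagreement was not tested. AT4G33420 and AT5G51890, known for vessel lignification, had log2 differences of 0.85 (SE 0.31) and -0.82 (SE 0.49). AT4G33420 had all yda-2 values above WT, as 1 of the 8 probe sets, against 1.73% of all tested probe sets. The groups of AT5G51890 overlapped, and yda-2 was the lower in 3 of 4 pairs. AT4G33870 reached the minimum mean of 100 only through replicate 2. Its signal in replicate 2 was 248.3 in yda-2 and 404.6 in WT, and at most 71.7 on the other arrays. AT1G68850, with a mean of 104.2, likewise rested on replicate 2. It had 147.4 in yda-2 and 282.9 in WT there, and at most 105.7 on the other arrays.

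The remaining 33 probe sets of the family had a mean below 100. Their median signal was 18.5, 37.3, 14.2 and 14.3 in yda-2 replicates 1 to 4, against 28.6, 69.4, 13.3 and 17.2 in WT replicates 1 to 4. In WT replicate 2, 15 of the 33 were at 100 or more, against 1 to 7 on the other arrays. The same array had 30.0% of all 3459 dim probe sets at 100 or more, against 2.75% to 18.0% on the others.

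**Figure D4:**
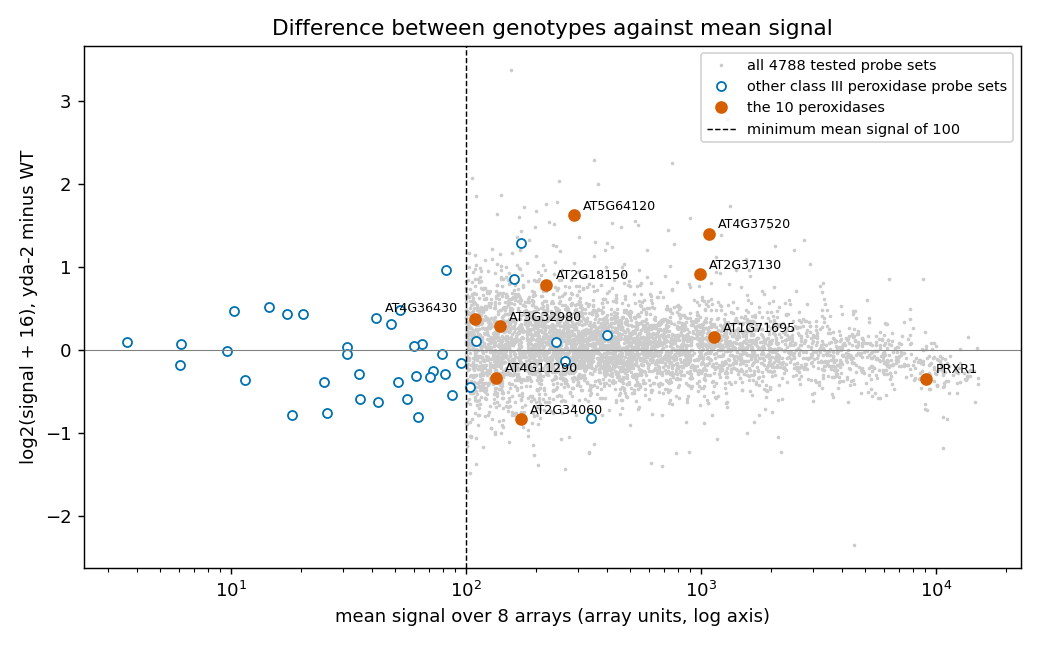
Log2 difference, yda-2 minus WT, against the mean signal over 8 arrays (log axis) for the 10 peroxidases (filled), the other 41 probe sets of the family (open) and the 4788 tested probe sets (grey), with the minimum mean signal of 100 dashed. The 10 peroxidases range from -0.84 in AT2G34060 to 1.62 in AT5G64120, and 33 of the open points lie left of the line.

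Genes that make or remove the hydrogen peroxide that peroxidases use, or supply their lignin substrates, were followed where they had a name on the array. Of 11 catalase and ascorbate peroxidase genes, 2 were tested, and 0 passed in either direction. SAPX and TAPX, the stromal and thylakoid ascorbate peroxidases of the chloroplast, had log2 differences of -0.07 for SAPX and of -0.34 and 0.04 for the probe sets of TAPX. Of 18 NADPH oxidase and superoxide dismutase genes, counting the copper chaperone CCS, 1 was tested. CCS had a signal of 1880 ± 399 in yda-2 and 958.1 ± 223.5 in WT (SD, n = 4 each), a log2 difference of 0.96 that did not pass (limma, adjusted p = 0.613, and 0.155 with the block). All yda-2 values of CCS lay above all WT values, as for 1.73% of all tested probe sets. It was higher in 4 of 4 pairs, as were 9.44% of all. The 18 monolignol synthesis genes and 6 laccase genes had 0 named probe sets. Lignin substrate supply could therefore not be set beside the peroxidases.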

How the data were processed

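The authors deposited 1 linear signal intensity for each probe set and array, and per the labels they scaled the average signal of all 8 arrays to 500. The summary algorithm is not given in the sources used here, and there are no detection calls. Columns were matched to samples by accession. Groups and replicate numbers come from the titles, which call the yda-2 arrays YODA and do not name the allele. Probe sets were named through the platform annotation, updated to TAIR10.1 by gene identifier. Of 8247 probe sets without controls, 3794 had 1 gene, 70 several and 4383 none in that table. Of the single-gene ones, 3784 matched.

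Signals were used as log2(signal + 16). The 50 control probe sets were left out, and the 4788 probe sets averaging 100 or more were tested in limma 3.58.1 (R 4.3.3, lmFit and eBayes with the intensity trend, two-sided, Benjamini-Hochberg over all tested probe sets, threshold 0.05). The F-test of the replicate number had genotype as a covariate. The scripts were tested on simulated data. The number of arrays limits the precision. The members, gene lists and alternatives were chosen with earlier results of these data known. Named genes are the members, their closest probe set in pattern, and up to 3 measured genes of each list.

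Same-numbered arrays were taken as pairs: the labels give replicates as separate harvests, and the deviations of both arrays of a number from their genotype's mean had correlations of 0.596, 0.296, 0.324 and 0.577 in pairs 1 to 4, with 7 of 8 arrays closest to their own number. The fit without the block is the main one. Figures were drawn with matplotlib 3.10.9.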

Additional observations from a re-analysis of the deposited data

How the results depend on the processing

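Signs of the genotype differences were unchanged for 7 of the 10 peroxidases under every alternative run. They changed in AT4G36430 (-0.03) and AT3G32980 (-0.02) without WT replicate 2 and in AT4G11290 (0.20) with replicates 1 and 2 alone. Changing only the filter, the trend, the eBayes method or the block leaves a difference as it is, so those fits could not change a sign. Of the 7, AT1G71695 went down to 0.005 and PRXR1 came to -0.02 in other fits. Over the whole table the genotype count of 2 was 0 with a pseudocount of 1, a minimum mean of 200, quantile normalization, median centring or replicates 1 and 2 alone, 1 with no filter, 11 with array weights, and 0 to 2 with 1 array left out. With the replicate block it was 9, with the block and median centring or quantile normalization 0, with the block and array weights 41, and with the block and 1 pair left out 0 to 28, the 28 without pair 2. Of the 10 peroxidases, 0 passed in these fits except 1 with array weights, with or without the replicate block. That 1 was AT4G37520, already picked out for a small p-value in this comparison. The pairing changed no call among the 10. The count of 397 probe sets that differed between replicates was 230 with no filter, 191 with quantile normalization, 138 without the intensity trend, 883 with array weights and 31 to 1474 with 1 array or pair left out. Among the 10 peroxidases it was 0 with quantile normalization and 0 to 4 with 1 array or pair left out, against 1. PRXR1 passed under 17 of 21 alternatives, the exceptions being quantile normalization and the fits without WT replicate 1, yda-2 replicate 1 or both. The causes were not tested. Alternatives by array set, the block with array weights and the overlap counts without WT replicate 2 or pair 2 were added after the data were seen. With 4 arrays a genotype and no detection calls, background could not be separated from dim signal.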
